A study of Homo sapiens with 6 samples.

Results

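Growth factor signals reach the nucleus largely through the RAS to ERK kinase cascade, and cells answer within minutes by transcribing immediate early genes such as FOS, JUN, EGR1, MYC and the IER, KLF and ZFP36 genes. A second set of targets closes the loop: the dual-specificity phosphatases (DUSP) remove the activating phosphates from ERK, JNK and p38 kinases, and the Sprouty (SPRY) and SPRED proteins hold back signalling between receptor and RAS. ETV4 and ETV5 are ETS-family factors often used as readouts of ERK output, and SRF is the factor that binds the promoters of many immediate early genes.

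These phosphatases, inhibitors and early genes were examined in the human embryonic kidney cell line HEK293, treated for 72 h by lipofection either with an siRNA against BAHD1, a chromatin protein known for heterochromatin formation and gene silencing, or with a control siRNA. Each group had 3 arrays, described by the submitters as biological replicates. The sources used here do not say whether these came from separate cultures, so p-values measure the spread between these samples. All cells were grown in serum-containing medium, and no growth factor pulse or kinase inhibitor is named, so the values are those of a growing culture. Members were probe sets whose annotation gives a single gene symbol, either DUSP, SPRY, SPRED or EGR followed by digits, or 1 of the named FOS, JUN, MYC, IER, KLF, ZFP36, ETV and SRF genes. This gave 53 genes of 19775 named in this way, read by 109 of the 54613 probe sets left without the controls. EGR2 and some DUSP genes had no such probe set and were not analysed here. Some genes are read by several probe sets, which share a target and are not independent.

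The level of each probe set is its array signal, a linear intensity on a scale common to the 6 arrays. The median signal per array was 17.4, 19.4 and 19.5 in BAHD1 siRNA cells and 17.2, 17.9 and 15.8 in control siRNA cells. Probe sets were tested when their signal was above 17.9, the median of all values, in at least 3 arrays. HEK293 identity was checked on epithelial, neurofilament and renal genes, of which 8 of the 9 represented had a tested probe set, among them KRT18, VIM, NEFL, NEFM and PAX2, whereas those of blood, liver and endothelial cells included PTPRC, CD14, ALB and CDH5 with none. Of the HEK293 genes VIM fell and NEFL and NEFM rose, but each of these calls was kept in only 1 of 6 fits with an array left out (limma adjusted p up to 0.124, 0.181 and 0.179) and none in the single-prior fit. After quantile normalisation NEFM was not called (adjusted p = 0.0588). The summed signals of the HEK293 genes were 4332.9 to 4599.1 in BAHD1 siRNA cells and 4640.2 to 5091.5 in control cells. For the other cell types, 3 of 9 genes were tested (COL1A1, HBB and PECAM1) and none passed, while the summed signal of all 9 was 257.3 to 276 in BAHD1 siRNA cells and 178.8 to 236.6 in control cells. The part of these shifts in the results was not tested. The targeted gene BAHD1 had signals of 36.6, 46.8 and 41.2 in BAHD1 siRNA cells, against 62.9, 55.7 and 46.7 in control siRNA cells. The groups overlapped by a narrow margin, and the log2 fold change of -0.40 ± 0.19 (SE) was not past the threshold (limma adjusted p = 0.251).

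The promoters of 3 early genes are shown for orientation, JUN and ZFP36L1 because they were past the threshold and EGR1 because its window carries matches to the SRF motif. Each is the 250 bases before the annotated start, read 5′ to 3′ from RefSeq (GRCh38.p14), with motif matches in capitals.
JUN, chr1:58784048-58784297, minus strand: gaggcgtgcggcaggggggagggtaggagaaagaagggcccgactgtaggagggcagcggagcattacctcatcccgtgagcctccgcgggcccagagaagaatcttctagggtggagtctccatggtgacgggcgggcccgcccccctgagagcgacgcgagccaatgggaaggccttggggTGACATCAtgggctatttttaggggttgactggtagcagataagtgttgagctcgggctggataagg
ZFP36L1, chr14:68793417-68793666, minus strand: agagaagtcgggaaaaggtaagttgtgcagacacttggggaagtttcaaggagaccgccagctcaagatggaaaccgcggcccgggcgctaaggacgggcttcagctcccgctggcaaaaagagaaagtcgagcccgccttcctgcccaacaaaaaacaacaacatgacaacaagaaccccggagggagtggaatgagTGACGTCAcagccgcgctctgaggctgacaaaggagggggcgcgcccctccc
EGR1, chr5:138465229-138465478, plus strand: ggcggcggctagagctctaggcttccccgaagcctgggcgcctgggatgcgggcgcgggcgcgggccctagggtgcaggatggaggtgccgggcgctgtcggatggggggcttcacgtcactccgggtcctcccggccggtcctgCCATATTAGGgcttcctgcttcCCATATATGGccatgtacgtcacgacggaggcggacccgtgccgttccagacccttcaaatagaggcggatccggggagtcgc

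In JUN the capitals mark TGACATCA, the variant AP-1 element, beginning 67 bases before the start (position -67). In ZFP36L1 they mark the cyclic AMP response element TGACGTCA at -52, and in EGR1 the pair of CArG boxes, the SRF binding motif, at -105 and -83. Both strands were searched, and the motifs do not overlap in these windows. Over 35116 promoter windows of this length, 2.37% held TGACATCA or its complement, 1.65% TGACGTCA, 1.16% a CArG box and 6.57% the AP-1 consensus TGANTCA. Of 58 windows of 41 member genes, 3 held the variant element (DUSP10, JUN and KLF6), 4 TGACGTCA (DUSP1, DUSP8, JUND and ZFP36L1), 2 a CArG box (EGR1 and SRF) and 2 the consensus (SPRED3 and SPRY3). ZFP36L1 has a further annotated start without any of these motifs, and the DUSP19 window has none. A match is a match of letters only, and binding was not measured.

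Few of these genes gave a call. Of the 109 probe sets, 69 (39 genes) were tested, and 3 passed an adjusted p of 0.05: a JUN probe set fell, and probe sets of ZFP36L1 and DUSP19 rose. Calls are from limma with a variance prior that follows the signal (the intensity-trend fit), with Benjamini-Hochberg adjustment over all 27458 tested probe sets. That is 4.35% of the tested members, beside 4.45% of all tested probe sets (2.17% higher and 2.28% lower). The groups did not overlap in 20 of 69 members (29.0%), 10 in each direction, beside 25.6% of all tested probe sets (13.4% higher and 12.2% lower). At an unadjusted p under 0.05 there were 13 members (18.8%), beside 20.9% of all. All of these shares lie near the background. With a single variance prior for all probe sets, limma called 0 of the 69 members and 0% of all probe sets, and 13 members had an unadjusted p under 0.05 there, beside 17.6% of all. All 3 calls therefore rest on the intensity-trend fit, which was chosen knowing that the other made no call.

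**Figure D1:**
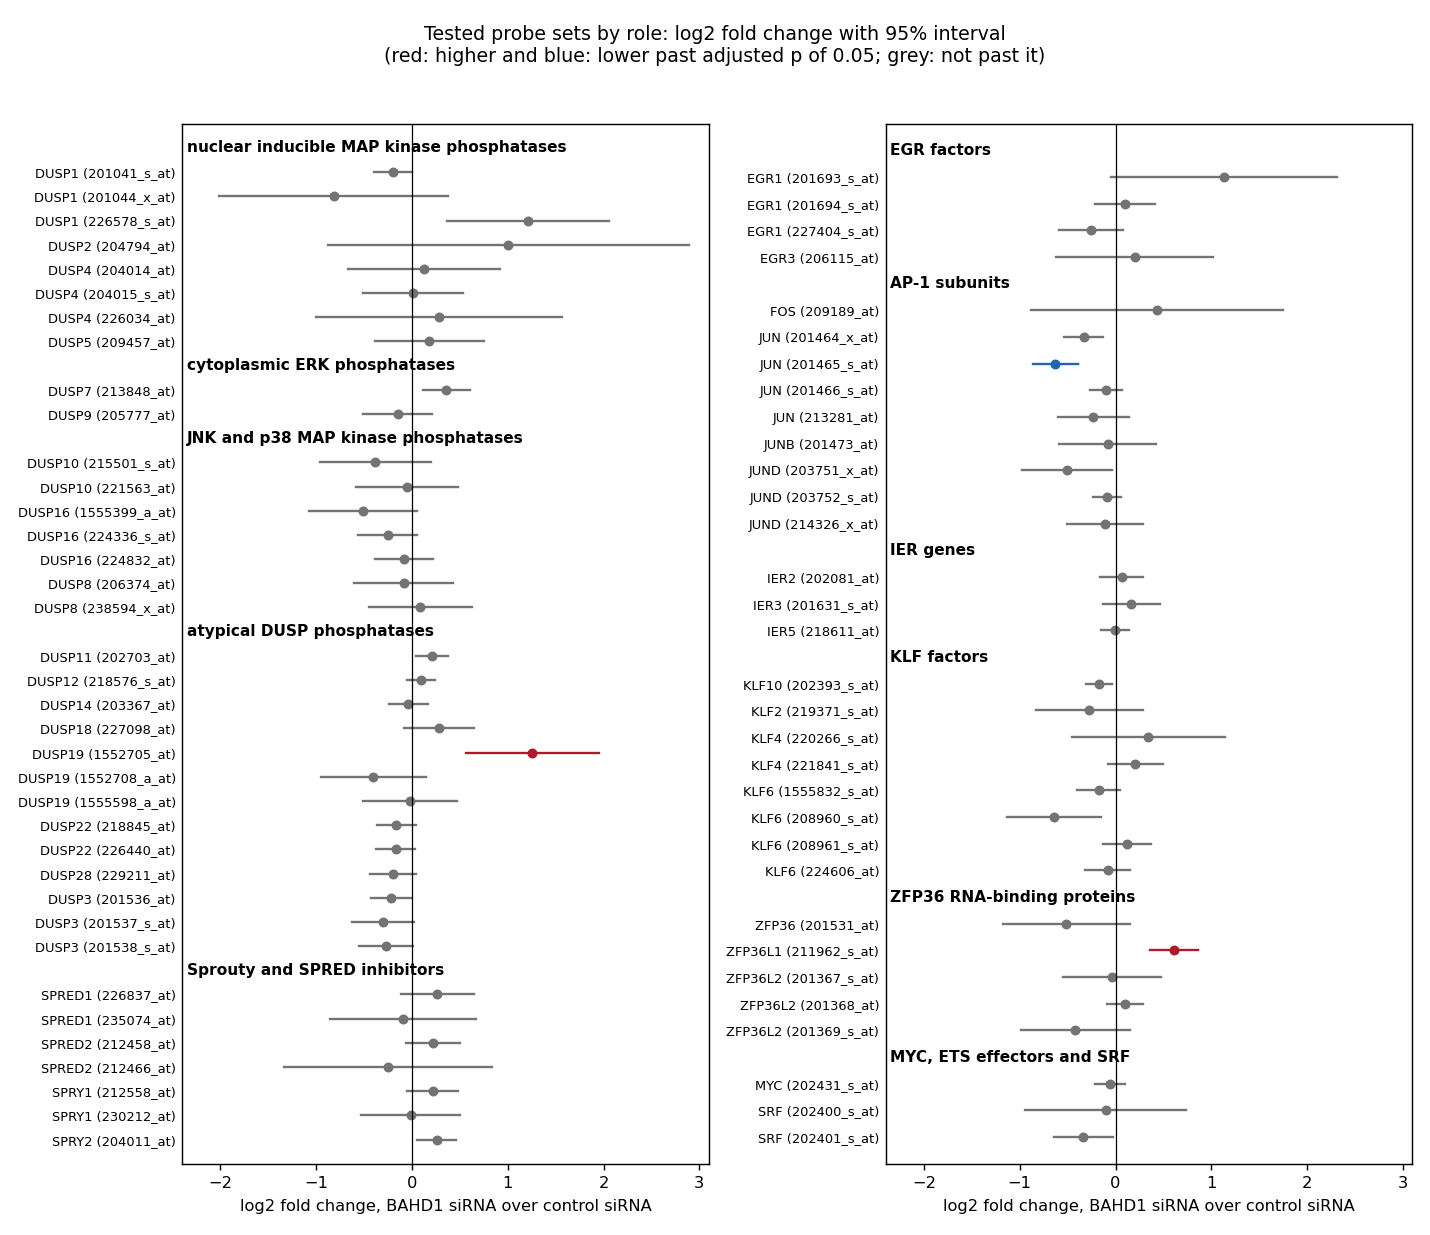
Log2 fold change, BAHD1 siRNA over control siRNA (horizontal axis), with its 95% interval for each of the 69 tested probe sets, grouped by role. The JUN probe set 201465_s_at lies at -0.63, ZFP36L1 at 0.61 and DUSP19 (1552705_at) at 1.25, and the other 66 are grey because they did not pass the test.

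Members leaned slightly to lower values: 42 of the 69 had a negative log2 fold change (60.9%), with a median of -0.083, against 48.0% and a median of 0.013 over all tested probe sets. In the dimmest quartile of all probe sets 12 members were higher and 12 lower, in the second quartile 3 were higher and 12 lower, in the third 8 and 10, and in the brightest 4 and 8. Over all probe sets, 60.9% of the dimmest quartile, 55.9% of the second, 49.1% of the third and 42.1% of the brightest were higher in BAHD1 siRNA cells. Dim and bright members thus stand on different baselines. The part of this shift in single members was not tested. In bulk RNA, fewer cells that express a gene and less RNA per cell cannot be told apart.

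**Figure D2:**
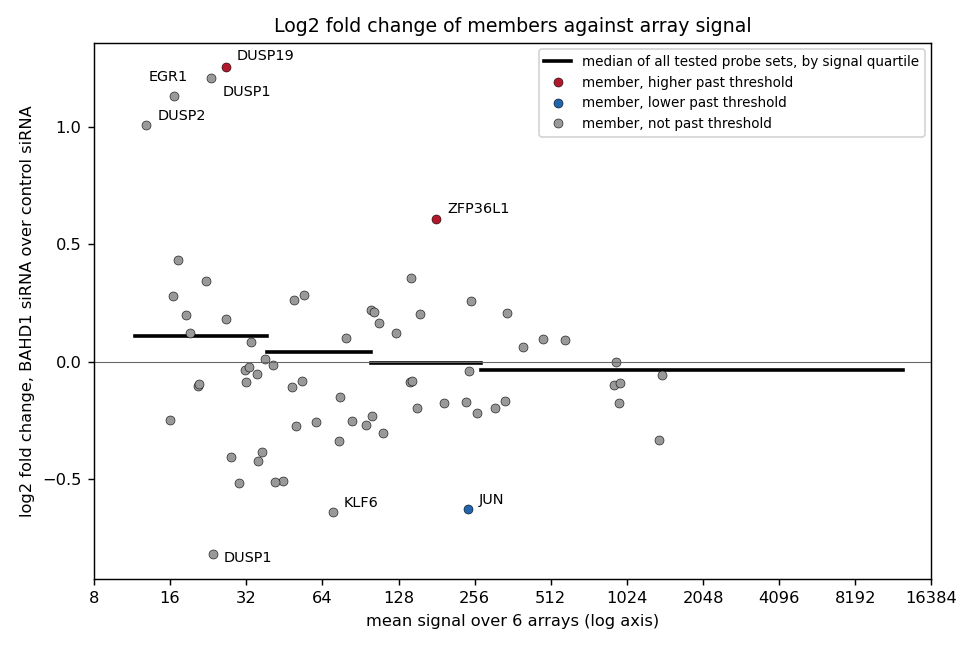
Each point is a tested member probe set, placed by its mean signal over the 6 arrays (horizontal, log axis) and its log2 fold change (vertical); black lines give the median of all tested probe sets in each signal quartile, which runs from 0.11 in the dimmest to -0.035 in the brightest. DUSP19, DUSP1, EGR1 and DUSP2 give the 4 points above 1, all at dim signal, whereas ZFP36L1 and JUN lie among brighter probe sets.

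Among AP-1 subunits, which pair as JUN-JUN or JUN-FOS dimers to bind DNA, JUN fell in 1 of its 4 probe sets. Probe set 201465_s_at had signals of 172.1, 217.0 and 177.5 in BAHD1 siRNA cells, against 304.9, 267.4 and 301.6 in control siRNA cells. Every BAHD1 siRNA array was below every control array. The log2 fold change was -0.63 ± 0.11 (SE, 3 arrays per group; limma adjusted p = 0.0111), which puts the level at 64.7% of control. This call was the steadiest of the 3: it was kept with each array left out in turn (adjusted p from 0.0163 to 0.0478, log2 fold change from -0.73 to -0.56), while the single-prior fit gave an adjusted p of 0.141.

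The other JUN probe sets were lower by less. The brightest, 201464_x_at, a design type that may cross-hybridise, had 1217.0, 1087.6 and 1327.1 in BAHD1 siRNA cells and 1333.6, 1532.9 and 1714.8 in control siRNA cells. These groups did not overlap either, at a log2 fold change of -0.33 ± 0.09 and a limma adjusted p of 0.0656. Probe set 201466_s_at had 837.3, 841.9 and 946.9 in BAHD1 siRNA cells against 863.9, 929.8 and 1021.8 in control cells, and 213281_at had 107.0, 80.3 and 87.3 against 97.3, 90.2 and 139.2. Both overlapped between groups, with log2 fold changes of -0.10 (95% interval -0.27 to 0.07) and -0.23 (-0.60 to 0.14). The direction was thus shared by all 4, but the size was not: the interval of 201465_s_at, -0.86 to -0.40, does not reach that of 201466_s_at. The sources used here do not say which part of the transcript each reads.

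**Figure D3:**
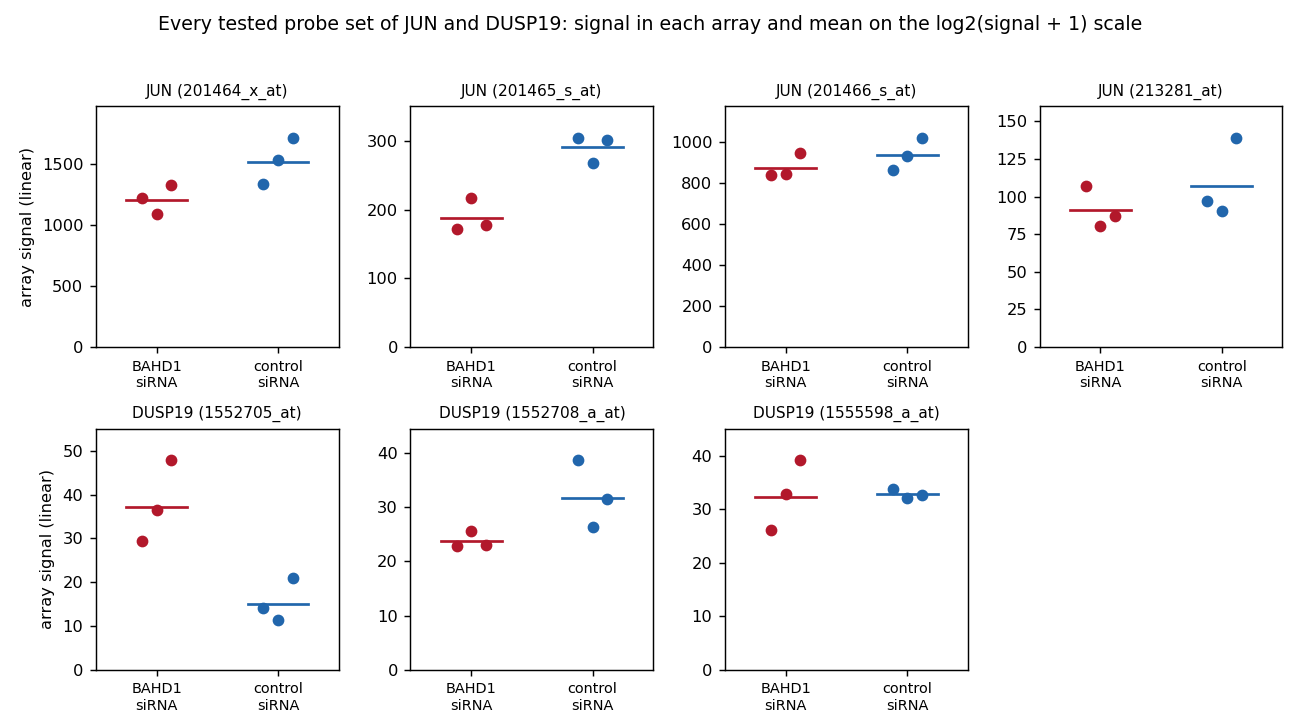
Array signal (vertical, linear, from 0) in each BAHD1 siRNA array (red, left) and each control siRNA array (blue, right) for the 4 tested probe sets of JUN and the 3 of DUSP19; bars are means on the log2(signal + 1) scale. For JUN all 4 BAHD1 siRNA bars are lower, by -0.63 to -0.10 on the log2 scale. For DUSP19 the first probe set is higher by 1.25 and the others are at -0.40 and -0.02.

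The JUN relatives gave no call. JUND, a more constitutive AP-1 subunit, was read by 3 tested probe sets at log2 fold changes of -0.51, -0.11 and -0.09, with limma adjusted p from 0.206 to 0.786. The first, 203751_x_at, had 43.0, 34.9 and 31.4 in BAHD1 siRNA cells and 65.1, 40.3 and 52.8 in control cells. JUNB was at -0.08 (95% interval -0.59 to 0.43). Taken over JUN, JUNB and JUND, 8 of 8 tested probe sets had a negative value, beside 48.0% of all tested probe sets. Those of JUN share a target, as do those of JUND, and are not independent. All 8 were also negative after quantile normalisation and on the log2(signal + 16) scale, and 7 or 8 with an array left out. Centring the array medians lowers every value by the same amount, so it could not turn a negative one.

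The FOS branch could hardly be read. FOS had 12.5, 28.0 and 15.1 in BAHD1 siRNA cells and 23.5, 4.0 and 19.8 in control siRNA cells, around the level of the signal filter. Its log2 fold change of 0.44 has a 95% interval from -0.88 to 1.75, and it was -0.29 without control replicate 2. No probe set of FOSB, FOSL1 or FOSL2 was bright enough to be tested. FOSL2, the best covered with 5 probe sets, exceeded 17.9 in at most 2 arrays in any of them, and the FOSB probe set stayed between 0.7 and 6.1.

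ZFP36L1 encodes an RNA-binding protein that recognises AU-rich elements and promotes decay of the mRNAs that carry them. It rose in its 1 tested probe set, 211962_s_at, which had 184.5, 225.0 and 245.5 in BAHD1 siRNA cells, against 137.2, 152.6 and 136.2 in control siRNA cells. No BAHD1 siRNA array reached down to the control values. The log2 fold change was 0.61 ± 0.12 (SE, 3 arrays per group; limma adjusted p = 0.0172), or 1.53-fold. The call was lost without BAHD1 siRNA replicate 2, BAHD1 siRNA replicate 3 or control replicate 1 (adjusted p = 0.0688, 0.0751 and 0.0592), at log2 fold changes of 0.58, 0.52 and 0.59, and in the single-prior fit (adjusted p = 0.149). Its 3 other probe sets were too dim to test, with all arrays between 0.8 and 18.2.

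Its relatives gave no call. ZFP36L2 had 483.8, 483.3 and 505.5 in BAHD1 siRNA cells and 442.2, 419.5 and 520.9 in control cells in its brightest probe set, a log2 fold change of 0.10 (95% interval -0.09 to 0.28). Its dimmer probe sets were at -0.03 and -0.42. ZFP36, the founding member also called tristetraprolin, had 26.6, 14.4 and 34.6 against 30.0, 34.9 and 38.8 in control cells, at -0.52 (-1.18 to 0.15). Their limma adjusted p ran from 0.366 to 0.953.

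DUSP19, an atypical phosphatase known to bind the JNK kinase MKK7, rose in 1 of 3 tested probe sets. Probe set 1552705_at had 29.4, 36.4 and 47.8 in BAHD1 siRNA cells, against 14.1, 11.3 and 21.0 in control siRNA cells, without overlap. The log2 fold change was 1.25 ± 0.32 (SE, 3 arrays per group; limma adjusted p = 0.0452). This is a dim probe set: only 1 of the 3 control arrays was above the filter of 17.9, so the control level is not shown to be above background and the size of the change is uncertain. The value was 0.77 on the log2(signal + 16) scale, where it still passed. It did not pass with quantile normalisation (adjusted p = 0.0586), without the filter on dim probe sets (0.087), in the single-prior fit (0.148) or without any array other than control replicate 3 (0.0504 to 0.223). The other DUSP19 probe sets did not share the rise. Probe set 1552708_a_at had 22.8, 25.5 and 23.0 against 38.6, 26.3 and 31.5 in control cells, at -0.40 (95% interval -0.95 to 0.14). The third, 1555598_a_at, was at -0.02 (-0.51 to 0.47).

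**Figure D4:**
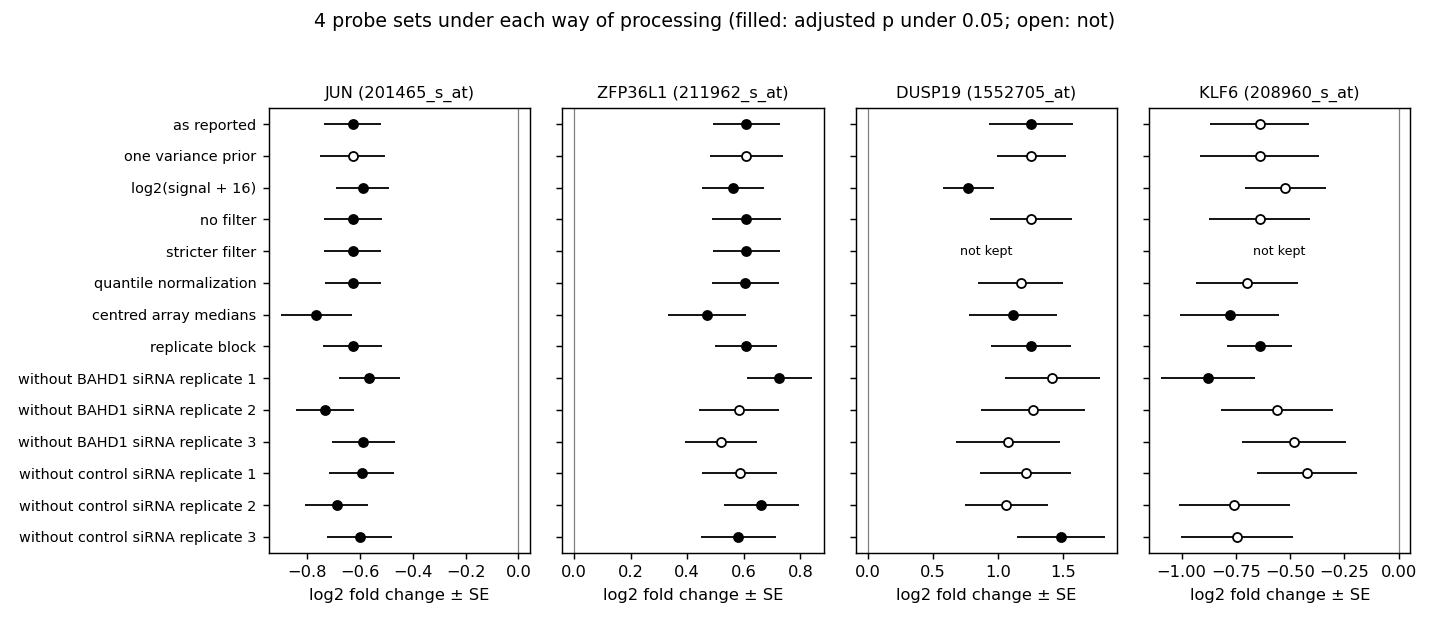
Log2 fold change ± SE (horizontal) of 1 probe set each of JUN, ZFP36L1, DUSP19 and KLF6 under each way of processing (rows); filled points passed an adjusted p of 0.05 and open points did not. All points keep their sign, JUN is filled everywhere except with a single variance prior, and KLF6 is filled with centred medians, with the replicate block and without BAHD1 siRNA replicate 1.

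The remaining atypical phosphatases gave small values. DUSP3, also known as VHR, which acts on ERK and JNK, was read by 3 tested probe sets at -0.22, -0.30 and -0.27, all negative also with each array left out, and none passed (limma adjusted p from 0.224 to 0.277). Its brightest, 201536_at, had 226.6, 238.6 and 262.2 in BAHD1 siRNA cells and 311.9, 278.2 and 257.4 in control cells, with a small overlap. DUSP22, which acts in JNK signalling, was at -0.16 and -0.17. DUSP11, which trims phosphates from RNA ends, had 379.1, 353.6 and 367.5 in BAHD1 siRNA cells, above each of the control values of 331.3, 310.5 and 311.0. Its log2 fold change was 0.21 ± 0.08 and its limma adjusted p 0.154. DUSP12, DUSP14, DUSP18 and DUSP28 lay between -0.20 and 0.28. DUSP15, DUSP21, DUSP23 and DUSP26 had no probe set bright enough.

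The classical MAP kinase phosphatases, the direct brakes on ERK, JNK and p38, gave no call in 17 tested probe sets. Over all tested probe sets 4.45% were called, and 17 are too few to show a lower share. In the nuclear inducible group, DUSP1, the phosphatase induced by stress and mitogens, was read by 3 probe sets that disagree. The brightest, 201041_s_at, had 305.0, 300.8 and 254.6 in BAHD1 siRNA cells, all below the control values of 325.1, 348.0 and 311.9, with a log2 fold change of -0.20 (95% interval -0.40 to 0.003). The dim probe set 226578_s_at had 20.8, 37.7 and 40.0, all above the control values of 8.4, 13.5 and 19.5, at 1.21 (0.36 to 2.06; limma adjusted p = 0.1). The remaining 201044_x_at was at -0.82 through 1 BAHD1 siRNA array, replicate 2, with a signal of 4.2, and at -0.0022 without it. No single direction can be given for DUSP1.

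DUSP4 and DUSP5, ERK phosphatases of the nucleus, were dim. DUSP5 had 25.8, 24.4 and 34.9 in BAHD1 siRNA cells and 22.1, 26.9 and 25 in control cells, at 0.18 (95% interval -0.39 to 0.75). The 3 DUSP4 probe sets were at 0.01, 0.12 and 0.28, and 2 of them turned negative after quantile normalisation and with centred medians. DUSP2, which is best known in activated lymphocytes, had 5.7, 22.0 and 20.6 against 2.0, 22.2 and 4.9 in control cells, so its log2 fold change of 1.01 spans -0.88 to 2.89.

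Of the cytoplasmic ERK phosphatases, DUSP7 came nearest to a call. It had 146.6, 153.1 and 183.4 in BAHD1 siRNA cells, above all control values of 121.2, 127.4 and 126.0. The log2 fold change was 0.36 ± 0.12 (limma adjusted p = 0.098). DUSP9 overlapped between groups, at -0.15 (95% interval -0.51 to 0.21). DUSP6, the ERK-specific phosphatase most used as a marker of ERK output, was not tested: its 3 probe sets had signals of 1.0 to 14.1 in BAHD1 siRNA cells and 1.0 to 15.8 in control siRNA cells, all under the filter. No statement on DUSP6 is made from this dim range.

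The phosphatases that prefer JNK and p38, DUSP8, DUSP10 and DUSP16, had 6 of 7 tested probe sets at negative values and none past the threshold. Over all tested probe sets 48.0% were negative. With an array left out, 4 to 6 of these 7 were negative, and those of 1 gene are not independent. All 3 of DUSP16 were negative, at -0.51, -0.25 and -0.09, with limma adjusted p from 0.289 to 0.774. In 224336_s_at it had 80.4, 64.8 and 85.5 in BAHD1 siRNA cells, below the control values of 90.5, 87.9 and 95.5. DUSP10 was at -0.38 and -0.05, and DUSP8 at -0.09 and 0.08.

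Sprouty and SPRED inhibitors gave no call in 7 tested probe sets, too few to set against the 4.45% called among all tested probe sets. SPRY2, which is itself induced by ERK and dampens receptor tyrosine kinase signalling, had 276.6, 250.1 and 281.4 in BAHD1 siRNA cells, above all control values of 225.4, 208.9 and 241.0. Its log2 fold change of 0.26 ± 0.09 had a limma adjusted p of 0.135. The brighter probe sets of SPRY1, SPRED1 and SPRED2 were at similar values of 0.21, 0.26 and 0.22, and those of SPRY1 and SPRED1 did not overlap between groups. With SPRY2 that makes 3 of 7 without overlap, all higher, beside 25.6% of all tested probe sets without overlap and 13.4% without overlap and higher, while the dimmer probe sets of SPRY1, SPRED1 and SPRED2 were at -0.01, -0.09 and -0.25. With array medians centred, which moves the median of all tested probe sets to -0.13, the median of the 7 was 0.08, against 0.21 without that step.

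SPRY4, another inhibitor under ERK control, had 18.0, 17.3 and 2.7 in BAHD1 siRNA cells and 3.7, 14 and 6.9 in control cells and was not tested. SPRY3 and SPRED3 were dim as well, with no array above 14.9 in either. ETV4 and ETV5 likewise had no probe set over the filter in 3 arrays: the highest ETV4 signal was 13.6, in a control array, and the highest of the 5 ETV5 probe sets was 31.5, in BAHD1 siRNA replicate 3. SPRY2 thus entered the test, and DUSP6, SPRY4, ETV4 and ETV5 did not. Other members that answer ERK signals, such as DUSP4, DUSP5, EGR1, FOS, IER3 and MYC, were tested.

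EGR factors, zinc finger proteins induced through SRF, showed no call. EGR1 was measured best by 201694_s_at, with 80.4, 74.4 and 91.3 in BAHD1 siRNA cells and 72.8, 70.4 and 86.3 in control siRNA cells. These groups overlap, and the log2 fold change of 0.10 has a 95% interval of -0.22 to 0.42. Probe set 227404_s_at had 58.2, 58.4 and 49.2, all below the control values of 63.8, 67.8 and 66.5, at -0.26 (-0.59 to 0.08). The dim 201693_s_at was at 1.13 (-0.05 to 2.32), with 31.7, 16.2 and 19.5 against 8.9, 4.6 and 18.7. The intervals of all 3 include 0 and their signs differ. EGR3 was at 0.20 (-0.62 to 1.02) and EGR4 was too dim to test.

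SRF itself had 64.5, 60.8 and 73.0 in BAHD1 siRNA cells, below all control values of 80.9, 80.4 and 89.2 in its brighter probe set. The log2 fold change was -0.34 ± 0.14, with a limma adjusted p of 0.2, and the dim probe set was at -0.10. MYC, a growth regulator and early target of the same signals, was among the better measured members. Its signals were 1389.6, 1454.4 and 1306.9 in BAHD1 siRNA cells and 1472.7, 1322.9 and 1525.8 in control siRNA cells. The groups overlap, and the 95% interval of its log2 fold change, -0.21 to 0.10 around -0.06, holds only changes of under 1.5-fold.

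The IER genes lay close to level. IER5, a regulator of the heat shock response, had 982.9, 917.2 and 888.6 in BAHD1 siRNA cells and 891.0, 947.8 and 950.3 in control cells, a log2 fold change of -0.00086 with an interval from -0.15 to 0.15. IER2 was at 0.06 (-0.16 to 0.29). IER3, a survival factor and ERK substrate, had 128.9, 105.8 and 104.0 against 108.9, 107.2 and 86.1 in control cells, at 0.16 (-0.14 to 0.46).

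**Figure D5:**
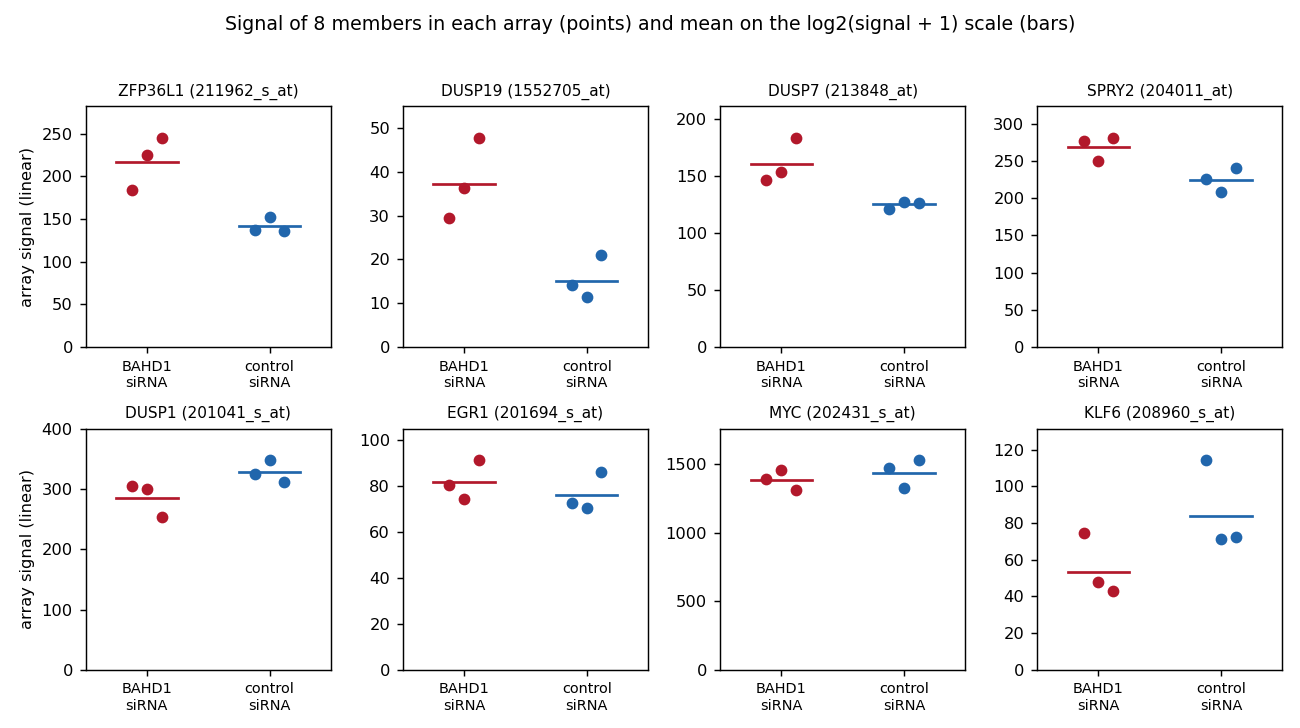
Array signal (vertical, linear, from 0) of 8 member probe sets in BAHD1 siRNA arrays (red, left) and control siRNA arrays (blue, right), with bars at the mean on the log2(signal + 1) scale. ZFP36L1, DUSP19, DUSP7 and SPRY2 separate upward and DUSP1 (201041_s_at) downward, of which ZFP36L1 and DUSP19 passed the test, while EGR1, MYC and KLF6 overlap.

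KLF factors also gave no call. KLF6, a zinc finger factor with tumour suppressor roles, was read by 4 tested probe sets, and the lowest, 208960_s_at, had 74.8, 47.7 and 42.8 in BAHD1 siRNA cells and 114.1, 71.3 and 72.6 in control cells. Its log2 fold change of -0.64 ± 0.23 had a limma adjusted p of 0.13, and without BAHD1 siRNA replicate 1 it was -0.88 and passed (adjusted p = 0.0413). The other 3 KLF6 probe sets were at -0.18, -0.08 and 0.12. KLF10, first described as a gene induced by TGF-beta, had 874.7, 876.0 and 936.9 in BAHD1 siRNA cells, below all control values of 987.1, 1008.4 and 1035.3. That is a log2 fold change of -0.17 ± 0.06 (limma adjusted p = 0.146). KLF4 was at 0.34 and 0.20 and KLF2 at -0.27.

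The precision behind these values varied widely. For 34 of the 69 tested members the 95% interval stays within 1.5-fold in both directions, and for 56 within 2-fold. The 40 untested probe sets, which include all probe sets of 14 genes, had signals of 0.2 to 31.5 with a median of 7.65, and 29 of them exceeded the filter in no array. Where a gene had more than 1 tested probe set, 9 of 18 genes had all signs alike, 7 of them negative (DUSP3, DUSP10, DUSP16, DUSP22, JUN, JUND and SRF) and 2 positive (DUSP4 and KLF4). In the other 9, DUSP1, DUSP19, EGR1 and KLF6 included, the signs differed.

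The rest of the pathway was read from 5 lists of receptors, kinases and further early genes, with 105 genes, of which 85 had a tested probe set. Of their 209 tested probe sets 6 were called (2.87%), 1 higher and 5 lower, beside 4.45% of all probe sets, and none in the single-prior fit, where 39 had an unadjusted p under 0.05. Among receptors and adaptors 4 of 68 tested probe sets were called (5.88%), all lower, beside 4.45% of all probe sets (2.28% lower). These calls belong to 2 of 19 genes. By sign alone, 35 of the 68 were higher and 33 lower. PTPN11, the phosphatase SHP2 that links receptors to RAS activation, was called in 3 of 5 tested probe sets. In 209896_s_at it had 425.1, 404.5 and 378.3 in BAHD1 siRNA cells, against 627.9, 601.1 and 580.5 in control siRNA cells, well apart. The log2 fold change was -0.58 ± 0.08 (limma adjusted p = 0.004), kept with each array left out. Probe sets 205868_s_at and 212610_at fell by 0.76 and 0.26 on the log2 scale (limma adjusted p = 0.0196 and 0.0374), and the others were at -0.36 and -0.05. The call of 205868_s_at was lost without BAHD1 siRNA replicate 2 or 3 or control replicate 1 (adjusted p = 0.0581, 0.0675 and 0.0787), and that of 212610_at without any array other than BAHD1 siRNA replicate 1 (0.0506 to 0.148). IGF1R, the insulin-like growth factor receptor, fell in 1 of 4 tested probe sets, at -0.54 ± 0.14 (limma adjusted p = 0.045). That call was lost with any array left out (adjusted p from 0.0838 to 0.149), and the others were at -0.36, -0.02 and 0.03.

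Within the kinase cascades nothing passed, beside 4.45% of all probe sets called. At an unadjusted p under 0.05 the share of all probe sets was 20.9%, and 17.6% in the single-prior fit. The RAS to ERK list had 0 calls in 23 probe sets (limma). These read 13 of its 20 genes, and 6 of the 20 had no probe set annotated with 1 gene. In either fit 1 probe set had an unadjusted p under 0.05 (4.35%). It was that of MRAS, a RAS-like GTPase, at 0.39 (limma adjusted p = 0.11). The JNK, p38 and ERK5 list had 0 calls in 30 probe sets, which read 13 of its 17 genes. In each fit 5 were under 0.05 unadjusted (16.7%). Its smallest p belonged to MAP3K7, the kinase TAK1, at -0.29 in 211537_x_at (limma adjusted p = 0.0836), while another of its probe sets was at 0.17. The list of effector kinases and SRF cofactors had 0 calls in 38, which read 18 of its 20 genes. Of these 38, 5 were under 0.05 unadjusted (13.2%) and 4 in the single-prior fit. ATF2, a JUN partner, led it at 0.39 (limma adjusted p = 0.121).

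Of other immediate and delayed early genes, 1 of 22 rose and 1 fell. These are 2 of 50 tested probe sets (4%), near the 4.45% called among all probe sets. At an unadjusted p under 0.05 (limma) there were 14 (28%), beside 20.9% of all probe sets. In the single-prior fit there were 13 of 50, beside 17.6% of all. BTG1, an antiproliferative gene, had 1272.0, 1328.3 and 1462.4 in 200921_s_at in BAHD1 siRNA cells, against 865.7, 1016.1 and 1039.7 in control siRNA cells. It rose by 0.48 ± 0.08 (limma adjusted p = 0.0114), without overlap, and its other tested probe set was at 0.04. MCL1, which protects cells from apoptosis, had 814.4, 795.5 and 770.2 in BAHD1 siRNA cells in 200797_s_at, against 1005.5, 1027.3 and 997.7 in control siRNA cells. That probe set fell by 0.35 on the log2 scale (SE 0.06, limma adjusted p = 0.0132), and its other 4 were between -0.31 and -0.13. The MCL1 call was lost without BAHD1 siRNA replicate 2 or 3 or control replicate 2 (adjusted p = 0.0595, 0.0619 and 0.0566), at log2 fold changes of -0.35, -0.33 and -0.34. The BTG1 call was lost without BAHD1 siRNA replicate 3, at 0.42 (adjusted p = 0.051), and kept without any other array.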

How the data were processed

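RNA of 6 HEK293 samples was labelled and hybridised to 1 array each. The authors deposited 1 linear intensity per probe set and array; GCOS and GCRMA are both named in the submitters' processing notes, and the sources used here do not say which wrote the table. Each column's mean without its highest and lowest 2% is 100, so arrays were compared without further scaling. Detection calls were not used here, so dim signals have no stated background.

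Of 54675 rows, 62 control probe sets were left out. Values were analysed as log2(signal + 1), which understates changes of dim probe sets. Probe sets with a signal above 17.9 in at least 3 arrays were tested (27458). BAHD1 siRNA was compared with control siRNA by limma 3.58.1 in R 4.3.3 (lmFit, eBayes with trend and robust, no covariates), adjusted by Benjamini-Hochberg over all tested probe sets with a threshold of 0.05. Intervals are 95% intervals of the fit. The fit was tested on simulated data with noise drawn from its own variance trend. That simulation cannot decide between this fit and the single-prior fit. Gene names come from probe sets annotated with 1 gene, and 0 member symbols needed an update in RefSeq. No build is named for the arrays.

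The members, role groups and pathway lists were chosen with earlier results of these data known. Named were members past the threshold or with an unadjusted p under 0.01, the 3 smallest p-values of each role group, a fixed set of well-known members, and in each pathway list the called genes or otherwise the gene with the smallest p. Others were described after their values were seen. Alternatives were a single variance prior, log2(signal + 16), no filter or a stricter one, quantile normalisation, centred array medians, a replicate block, the brightest probe set per gene, and each array left out in turn. Same-numbered replicates are not stated to share a culture. The number of arrays limits the precision.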

Additional observations from a re-analysis of the deposited data

How the results depend on the processing

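The calls among members, 2 higher and 1 lower, depended on the processing. Member calls were 0 and 0 with a single variance prior, 1 higher without the filter and after quantile normalisation, 1 higher and 2 lower with the stricter filter (75th percentile), 3 lower with centred array medians, and 1 higher and 0 lower with the brightest probe set per gene, since the called JUN and DUSP19 probe sets are not their gene's brightest. With 1 array left out they ran from 0 to 2 higher and from 1 to 2 lower. The cause was not tested. The stricter filter leaves 28 member probe sets, and DUSP19 is no longer among them.

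Over all probe sets the 1221 calls (596 higher, 625 lower) became 0 (0 and 0) with a single variance prior, 398 (178 and 220) without the filter, and 192 higher and 1515 lower with centred medians, where 11.2% of calls were higher against 48.8%. With 1 array left out they ran from 177 to 1174 (80 to 616 higher, 97 to 606 lower). The lowest count came without BAHD1 siRNA replicate 3, followed by 186 without BAHD1 siRNA replicate 2, 279 without control replicate 2 and 295 without control replicate 1. The members' median log2 fold change of -0.083 became -0.054 on the log2(signal + 16) scale, -0.037 without the filter and -0.22 with centred medians, which move the median of all probe sets to -0.13, and ran from -0.10 to -0.034 with 1 array left out.

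With the replicate number as a block, 2 member probe sets were higher and 3 lower, and 1629 probe sets passed in all. Deviations of same-numbered arrays correlated at 0.01 to 0.024, and of others at -0.028 to 0.017, and not every array correlated best with its own number, so the numbers were not taken to pair the arrays.

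Of 385 values of 31 named probe sets under these settings, 356 kept direction and side of the threshold. Among the 31, only those of JUN, ZFP36L1 and DUSP19 were called as reported, and for the others staying uncalled counts as kept. The remaining values were 13 lost calls, all of JUN, ZFP36L1 or DUSP19, 3 gained calls and 13 turned signs. Signs turned for IER2 with centred medians (-0.073) and for IER5 after quantile normalisation (0.038). With 1 array left out, DUSP4 (226034_at) ran from -0.20 to 0.84, DUSP8 (206374_at) from -0.26 to 0.071, DUSP9 from -0.24 to 0.015, EGR3 from -0.0297 to 0.38, FOS from -0.29 to 0.86, IER2 from -0.017 to 0.18 and IER5 from -0.042 to 0.031. None of these passed in any setting.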
